A study of Mus musculus with 9 samples.

Results

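The genes described here are the subunits and regulators of the proteasome, as measured in the substantia nigra of mice given methylphenidate (MPH) or saline. They were taken by their gene symbols: every probe set whose platform annotation names a single gene, with a symbol that starts with Psma, Psmb, Psmc, Psmd, Psme or Psmf and a number, and for each gene the probe set with the highest mean over all arrays. This gave 43 genes of the 17097 measured, from 68 probe sets of the 28898 that name a single gene. They hold 19 genes of the core, 5 ATPases, 13 genes of the rest of the regulatory particle (lid or base), 3 activators and 1 regulator, Psmf1. The other 2, Psmc3ip and Psme3ip1, match by name and are not subunits. The 13 include Psmd5 and Psmd9, assembly chaperones of the base, which are counted with the subunits here. Psmc6, Psmd10, Psme2b and Psme4 have no probe set of this kind and were not analysed here. Swiss Webster mice had been injected daily on school days, for months from the juvenile age, with saline or with MPH at 1 mg/kg or at 10 mg/kg, and the substantia nigra was taken after a drug-free week. RNA of 3 samples from each of these groups was hybridised to 9 Affymetrix HT MG-430 PM arrays. The question asked here is whether the transcripts of the proteasome differed between these groups after the treatment had ended. No genetic change was made in any group, and the assignment of doses to arrays rests on the deposited labels alone. The gene lists published with the study pair the doses with these arrays the other way round, so the names of the MPH groups here are those of the labels, and which dose each received is not settled. No source states whether a sample is 1 animal or a pool, so p-values measure only the spread between these samples.

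The proteasome is the barrel-shaped protease that degrades proteins tagged with ubiquitin. Its core is built from rings of alpha subunits (Psma), which gate the entry, and rings of beta subunits (Psmb), some of which carry the proteolytic sites. A regulatory particle caps the core: its base holds a ring of ATPases (Psmc) that unfold the substrate, and its lid and base subunits (Psmd) bind ubiquitin chains and remove them. Activators (Psme) can take the place of that cap. Cells under interferon replace the catalytic subunits Psmb5, Psmb6 and Psmb7 with Psmb8, Psmb9 and Psmb10, which makes the immunoproteasome. Failure of protein degradation has long been studied in dopamine neurons of the substantia nigra, since ubiquitin-bearing inclusions mark Parkinson's disease there.

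The background of the arrays was read from 23 probe sets that match no transcript, which had a median log2 value of 2.93, a 95th percentile of 3.63 and a highest value of 5.29. Of the 16 dopamine neuron markers measured, Lmx1b stood near background in saline, at 2.94 to 3.17, and the others lay above the 95th percentile. The mean log2 level of these 16 markers was 8.11 to 8.34 on the saline arrays, 7.58 to 7.69 at 1 mg/kg and 7.72 to 7.76 at 10 mg/kg. In bulk tissue fewer cells of a type and less RNA per cell cannot be told apart. The mean level of 8 pan-neuronal markers overlapped, with 11.59 to 11.72, 11.58 to 11.64 and 11.57 to 11.66. For 11 microglia markers the mean level was 7.99, 7.74 and 7.65 in saline and 7.74 to 7.86 at 1 mg/kg. At 10 mg/kg it was 7.39, 7.69 and 7.68, and the median fold changes were -0.052 and -0.22. Markers of neighbouring regions differed between groups and within them. The mean level of 2 serotonin neuron markers was 4.16, 6.95 and 6.26 on the saline arrays, 3.18 to 3.86 at 1 mg/kg and 3.44 to 4.76 at 10 mg/kg, with median fold changes of -2.30 and -1.89, so the difference from saline was larger than for the dopamine neuron markers (-0.59 and -0.45). That of 3 thalamus markers was 7.92, 6.72 and 7.95 in saline, 8.31 to 8.66 at 1 mg/kg, all above saline, and 7.18 to 8.24 at 10 mg/kg. Within their own group saline replicate 1 thus stood apart in serotonin neuron markers and saline replicate 2 in thalamus markers. On 10 mg/kg replicate 1 the mean of 9 cortex and hippocampus markers was high (6.45, against 5.53 and 5.51). The mean of 8 oligodendrocyte markers was low there (10.20, against 10.64 and 10.60). Not every marker followed its mean: Cux2 of the cortex was lowest on that array (8.07, against 8.37 and 8.40). Cnp of the oligodendrocytes was level (9.72, against 9.71 and 9.76). The difference between the 3′ and 5′ control probe sets of Actb, a sign of RNA integrity, was 0.88 to 0.93 on the saline arrays and 1.03 to 1.19 on the MPH arrays. That of Gapdh overlapped between saline, 0.23 to 0.39, and MPH, 0.22 to 0.41. The part of these differences in the proteasome values was not tested.

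Across the proteasome genes the differences from saline were small. In the 1 mg/kg group 32 of the 43 genes were below the saline mean, and the median fold change was -0.044 on the log2 scale, as are all fold changes here. In the 10 mg/kg group 30 of the 43 were below it and the median was -0.037. Over all 17097 genes the medians were -0.021 and -0.020, and 56.2% and 56.0% of genes were below saline, against 74.4% and 69.8% of the proteasome genes. The 2 comparisons share the saline arrays and are not independent of each other. Without saline replicate 1 and 10 mg/kg replicate 1 together the medians were -0.044 and -0.0012, and without saline replicate 2 they were -0.068 and -0.069.

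None of the 43 genes passed an adjusted p of 0.05 (limma, Benjamini-Hochberg over 45037 probe sets, with the replicate number as a block). The smallest adjusted p was 0.382 at 1 mg/kg and 0.441 at 10 mg/kg, and it was Psmd2, a scaffold of the base, in both. The background was as low: 0% of all probe sets passed in either comparison. Without the block 0.12% and 0.255% of probe sets passed, and no proteasome gene did, with smallest adjusted p-values of 0.0721 and 0.114, again of Psmd2. These shares are 54 probe sets at 1 mg/kg and 115 at 10 mg/kg. The paper reports the same numbers, as genes, with the doses the other way round.

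At an unadjusted p of 0.05 or less (limma, n = 3 arrays a group), 5 proteasome genes were lower at 1 mg/kg, Psmd2, Psmb4, Psmd13, Psmd9 and Psmd4, which is 11.6% of the 43 against 7.4% of all genes. One of them was higher, Psma8, against 3.32% of all genes. At 10 mg/kg 3 genes were lower, Psmd2, Psmd13 and Psmd12, which is 6.98% against 6.95% of all genes, and 0 were higher, against 3.28%. With the block both shares of lower genes are near the background. The counts also rested on single arrays. The count of 5 became 2 without saline replicate 1, 1 without 1 mg/kg replicate 2, and 3 without saline replicate 2, 1 mg/kg replicate 3 or 10 mg/kg replicate 3, and the count of 3 became 1 without 10 mg/kg replicate 1 or replicate 3. Leaving out saline replicate 1 and 10 mg/kg replicate 1 together left 3 and 1. Without the block 6 of the 43 genes were lower and 1 higher at 1 mg/kg, against 12.9% and 6.62% of all genes. At 10 mg/kg 9 of the 43 were lower and 1 higher, against 12.2% and 6.41%. The share of lower genes there was above that of all genes, a difference that was not tested.

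**Figure D1:**
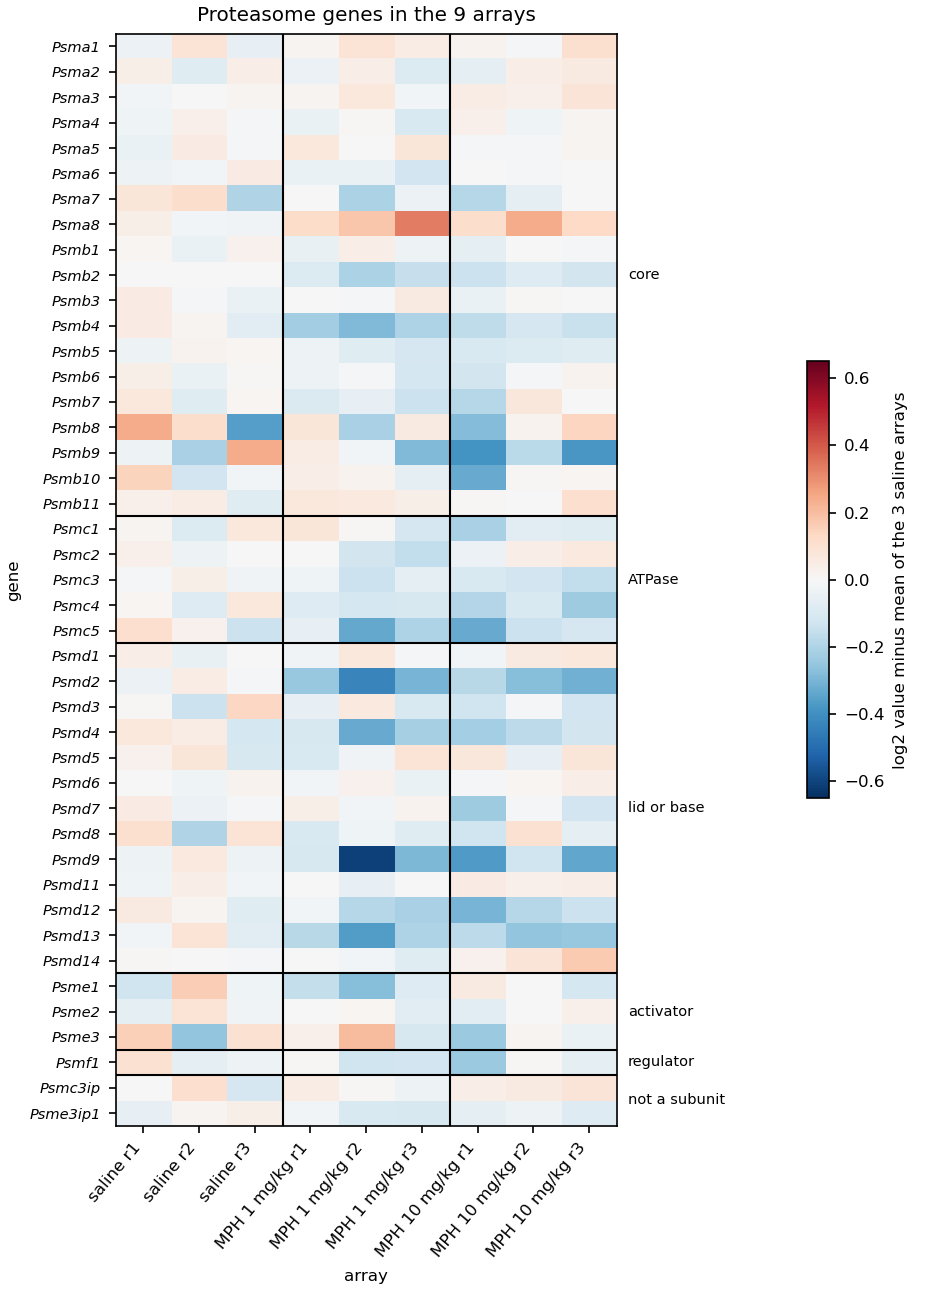
Log2 value of each of the 43 genes on each of the 9 arrays, minus the mean of the 3 saline arrays (colour scale in log2 units, r1 to r3 are the replicates, horizontal lines part the classes). Psmd2, Psmb4, Psmd13 and Psmd9 are blue on all 6 MPH arrays, while most rows are pale and mixed.

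The spread between replicates was narrow for this group. The median within-group SD of the 43 genes was 0.067 on the log2 scale, from 0.028 (Psmb5 and Psmd11) to 0.24 (Psmb8), against 0.097 over all genes. The 95% confidence interval of the fold change stayed within 1.5-fold in either direction for 42 of the 43 genes at 1 mg/kg and 41 of 43 at 10 mg/kg. Over all genes this held for 89.5% and 89.7%. The exceptions were Psmd9 in both comparisons and Psmb9 at 10 mg/kg, both on the lower side. For the other genes a difference of 1.5-fold in the probe set signal lay outside the interval.

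**Figure D2:**
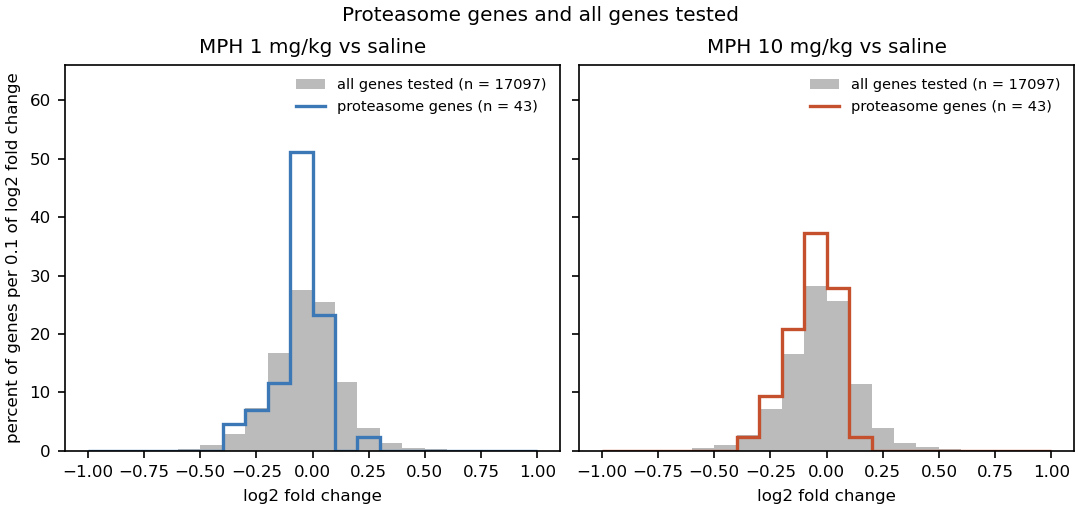
Distribution of log2 fold changes of the 43 proteasome genes (outlines) and of all 17097 genes (grey), in bins of 0.1, as percent of each set; 33 and 28 genes, none of them of the proteasome, lie beyond the range of 1 drawn to each side. The outlines are narrower than the grey and lean to the left of 0 in both panels.

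A complete separation of the groups was read next. At 1 mg/kg 8 proteasome genes had all 3 arrays below all 3 saline arrays and 1 had them above, that is 18.6% and 2.33% of the 43, against 15.3% and 8.97% of all genes. At 10 mg/kg 10 genes lay below and 3 above, that is 23.3% and 6.98%, against 15.8% and 8.75%. In 7 of the 43 genes all 6 MPH arrays lay below all 3 saline arrays: Psmb2, Psmb4, Psmb5, Psmc3, Psmd2, Psmd9 and Psmd13. Over all genes this held for 7.8%, and for 3.4% with all 6 arrays above. The 7 come from the core, the ATPase ring, the base, the lid and the assembly of the base. Only Psma8 had all 6 above, at levels near background.

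**Figure D3:**
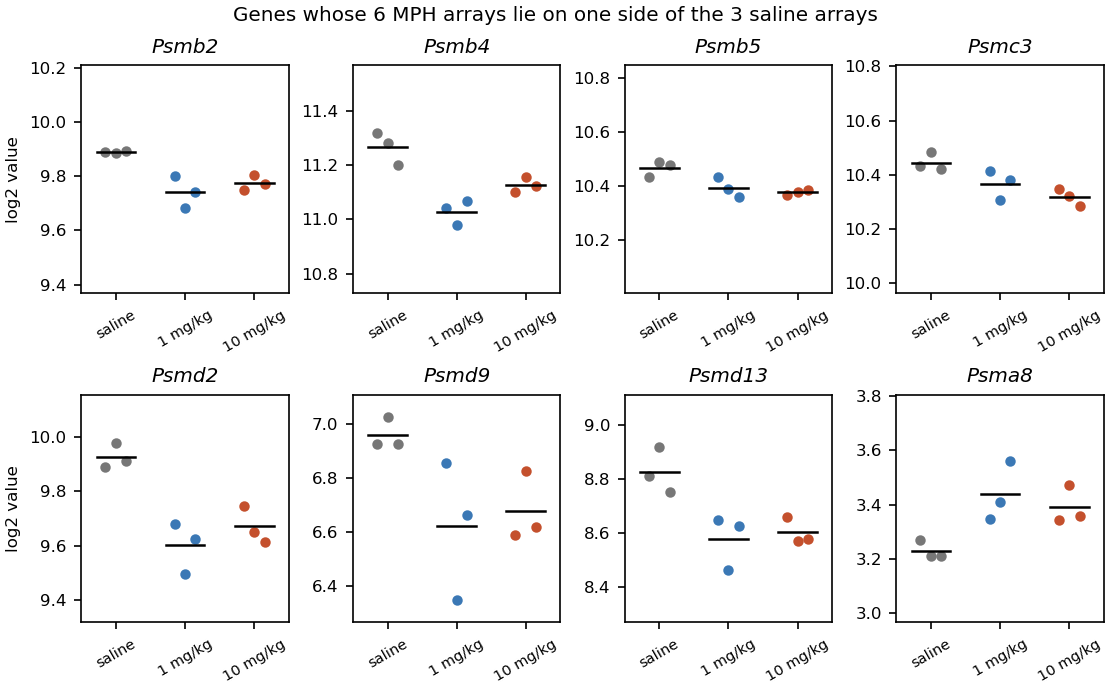
Log2 values of the 8 genes whose 6 MPH arrays lie on one side of the saline arrays (points are arrays, bars are means of 3; every panel spans the same number of log2 units). The gap between the saline and the MPH arrays is widest in Psmd2 (0.14) and Psmd13 (0.094) and narrowest in Psmc3 (0.0051) and Psmb5 (0.0008), Psmd9 has a wide spread at 1 mg/kg, and Psma8 lies near the background of the array.

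Psmd2 encodes the largest scaffold subunit of the base beside Psmd1, and docks shuttle receptors of ubiquitin and the deubiquitinase Usp14. Its log2 values were 9.89, 9.98 and 9.91 on the saline arrays, 9.68, 9.50 and 9.63 at 1 mg/kg and 9.75, 9.65 and 9.61 at 10 mg/kg. The highest MPH array was below the lowest saline array. The fold changes were -0.33 ± 0.08 (SE) at 1 mg/kg, which is a difference of -20.2%, and -0.26 ± 0.08 at 10 mg/kg, which is a difference of -16.2% (adjusted p = 0.382 and 0.441, limma). A second probe set of Psmd2 was at 3.09, near background, and gave -0.032 and -0.052, so the mean over both probe sets was -0.18 and -0.15. Without saline replicate 1 and 10 mg/kg replicate 1 the brightest probe set gave -0.38 and -0.31 (adjusted p = 0.328 and 0.591).

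Psmb4, a structural subunit of the beta ring, stood at 11.32, 11.28 and 11.20 in saline, 11.04, 10.98 and 11.07 at 1 mg/kg and 11.10, 11.16 and 11.12 at 10 mg/kg. The 3 groups did not overlap, with saline highest and 1 mg/kg lowest. The fold changes were -0.24 ± 0.07 and -0.14 ± 0.07 (adjusted p = 0.416 and 0.569, limma), or -15.2% and -9.20%.

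Psmd13, a lid subunit, had 8.81, 8.92 and 8.75 in saline, 8.65, 8.46 and 8.63 at 1 mg/kg and 8.66, 8.57 and 8.58 at 10 mg/kg. All MPH arrays were below saline, with fold changes of -0.25 ± 0.08 and -0.22 ± 0.08 (adjusted p = 0.427 and 0.490, limma). Another 2 probe sets, at 6.86 and 3.77, name Sirt3 together with Psmd13, the gene beside it, and could not be given to either. They gave -0.16 and -0.17 at 1 mg/kg and -0.16 and -0.24 at 10 mg/kg, and the second was near background.

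Psmd9, an assembly chaperone of the base that leaves the finished particle, was the most variable of these. Its values were 6.93, 7.02 and 6.92 in saline, 6.85, 6.35 and 6.66 at 1 mg/kg and 6.59, 6.83 and 6.62 at 10 mg/kg. The fold changes were -0.33 ± 0.14 and -0.28 ± 0.14 (adjusted p = 0.471 and 0.554, limma), and at 1 mg/kg the value ranged from -0.48 to -0.15 as single arrays were left out. Its other 2 probe sets, at 4.37 and 4.15, gave -0.29 and -0.041 at 1 mg/kg, and -0.085 and 0.16 at 10 mg/kg, so they disagree in sign in the second comparison.

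The other 3 of the 7 genes gave smaller differences. Psmb2, a structural beta subunit, was at 9.89, 9.88 and 9.89 in saline, at 9.80, 9.68 and 9.74 at 1 mg/kg and at 9.75, 9.80 and 9.77 at 10 mg/kg. The SD of the saline arrays was 0.005, and the fold changes were -0.15 ± 0.07 and -0.11 ± 0.07. Psmb5, which carries the chymotrypsin-like site, was lower by a fold change of -0.073 and -0.090 (SE 0.07), and its highest MPH array, 10.433, was only just below its lowest saline array, 10.434. Psmc3, an ATPase, had fold changes of -0.078 and -0.13 (SE 0.07).

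Sequence near the transcription start was set beside these genes, since promoters of proteasome genes are known to share elements. Windows of 300 bases, from 250 before an annotated start to 50 after it, came from RefSeq (GRCm38.p6) for 34 of the 41 subunits and regulators and for 5 of the 7 genes above (Psmb2 and Psmc3 were not matched). The core of the antioxidant response element, through which Nfe2l1 and Nfe2l2 act (TGACNNNGC on either strand), was in 4 of the 34 genes, Psmb5, Psmb6, Psmd9 and Psmd12. That is 11.8%, against 13.99% of all 27025 genes with a window. The core bound by ETS factors (CGGAAG on either strand), which was added after the sequences were seen, was in 18 of the 34, or 52.9%, against 18.8% of all genes, and a GC box (GGGCGG on either strand) was in 19, or 55.9%, against 38.2%. A CCAAT box (CCAAT on either strand) was in 13, or 38.2%, against 41.1%. The core of the interferon-stimulated response element (GAAA, any 2 bases and GAAA, on either strand) was in 4, Psmb3, Psmd4, Psmd9 and Psme1, or 11.8%, against 3.99%. Of the 5 genes above with a window, 3 held the ETS core, 2 the antioxidant response element core, 2 a GC box, 1 the interferon-stimulated response element core and 0 a CCAAT box. Base composition was not matched in these shares. The 5 windows are shown because their genes had all MPH arrays below saline. Capitals mark the ETS core in Psmd2 (chr16:20651402-20651701, plus strand), Psmb4 (chr3:94886909-94887208, minus strand) and Psmd13 (chr7:140882144-140882443, plus strand), and the antioxidant response element core in Psmd9 (chr5:123227940-123228239, plus strand), where a GC box on the other strand overlaps it, and in Psmb5 (chr14:54617946-54618245, minus strand).
Psmd2: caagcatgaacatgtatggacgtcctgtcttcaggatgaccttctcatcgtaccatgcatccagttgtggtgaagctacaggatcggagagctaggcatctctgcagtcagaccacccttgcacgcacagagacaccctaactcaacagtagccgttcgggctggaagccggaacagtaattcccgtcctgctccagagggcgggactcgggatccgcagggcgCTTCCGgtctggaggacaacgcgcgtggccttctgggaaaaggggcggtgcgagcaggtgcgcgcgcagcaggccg
Psmb4: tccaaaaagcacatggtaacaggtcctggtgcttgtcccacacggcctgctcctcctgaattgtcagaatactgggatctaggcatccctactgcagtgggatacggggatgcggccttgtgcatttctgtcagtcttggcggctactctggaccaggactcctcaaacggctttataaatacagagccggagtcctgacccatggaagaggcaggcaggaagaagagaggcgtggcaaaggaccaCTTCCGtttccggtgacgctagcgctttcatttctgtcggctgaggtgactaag
Psmd13: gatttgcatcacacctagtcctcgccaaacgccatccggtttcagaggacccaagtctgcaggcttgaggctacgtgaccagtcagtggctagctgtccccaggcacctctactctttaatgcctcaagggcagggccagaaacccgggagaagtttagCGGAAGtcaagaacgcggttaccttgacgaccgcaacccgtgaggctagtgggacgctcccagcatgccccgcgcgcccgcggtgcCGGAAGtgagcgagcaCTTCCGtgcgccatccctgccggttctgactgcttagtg
Psmd9: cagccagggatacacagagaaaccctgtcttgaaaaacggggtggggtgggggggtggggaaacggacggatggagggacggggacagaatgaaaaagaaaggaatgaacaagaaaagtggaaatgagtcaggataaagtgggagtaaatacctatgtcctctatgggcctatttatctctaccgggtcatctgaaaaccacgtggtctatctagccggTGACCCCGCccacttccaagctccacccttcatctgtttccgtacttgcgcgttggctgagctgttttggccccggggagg
Psmb5: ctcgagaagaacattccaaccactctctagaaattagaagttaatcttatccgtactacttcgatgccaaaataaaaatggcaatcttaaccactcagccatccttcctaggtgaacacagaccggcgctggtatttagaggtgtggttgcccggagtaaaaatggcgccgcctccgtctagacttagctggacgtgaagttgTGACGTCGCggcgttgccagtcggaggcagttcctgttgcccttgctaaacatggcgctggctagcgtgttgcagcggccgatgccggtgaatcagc
The window of Psmd2 is set on an annotated start inside the gene, whose first base is at 20651122. The ETS core occurs 3 times in the window of Psmd13. It occurs once in that of Psmd2, at position -26 from that inner start, and once in that of Psmb4, at position -4 from its annotated start. Such a match describes the letters and is not a measurement of binding.

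The core genes lay close to saline. The median log2 fold change of the 19 core genes was -0.028 at 1 mg/kg and -0.026 at 10 mg/kg, with 12 and 13 genes below saline and 0 past the adjusted threshold in either comparison. The alpha subunits of the gate were nearest to 0. Psma1 to Psma7 had fold changes between -0.082 and 0.055 in both comparisons, the lowest in Psma7 and the highest in Psma3, none of them larger than about its standard error. The core median turned to 0.023 at 10 mg/kg without saline replicate 1 and 10 mg/kg replicate 1 (0.014 without 10 mg/kg replicate 1 alone), and to 0.011 at 1 mg/kg without saline replicate 1. Psma3 had all 3 arrays of the 10 mg/kg group above saline (11.09, 11.07 and 11.13 against 11.03, 11.04 and 11.06), a fold change of 0.055 ± 0.07. Psma8, which replaces an alpha subunit in the testis, had values of 3.21 to 3.27 in saline, 3.35 to 3.56 at 1 mg/kg and 3.34 to 3.47 at 10 mg/kg. Its fold changes were 0.21 ± 0.08 and 0.16 ± 0.08, and all its levels lay under the 95th percentile of the background. Psmb11, a subunit of the thymus, was likewise at 2.91 to 3.10 on all arrays.

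The catalytic subunits were compared as pairs, the interferon-inducible one minus the constitutive one on each array, which asks whether the balance moved towards the immunoproteasome. Probe sets are not comparable in level, so only the shift of this difference between groups is given. For Psmb8 minus Psmb5 the shift was 0.049 at 1 mg/kg and 0.050 at 10 mg/kg, and for Psmb9 minus Psmb6 it was -0.034 and -0.28. For Psmb10 minus Psmb7 it was 0.097 and -0.067. The exact two-sided permutation p was 0.8 and 0.8, 0.9 and 0.2, and 0.2 and 0.4 in the same order, and 0.6 to 0.9 after adjustment over the 6 comparisons, where 3 arrays against 3 cannot go below 0.1. The saline arrays alone ranged from -5.54 to -4.90 for Psmb8 minus Psmb5, which is wider than any shift. Its sign turned without saline replicate 3, to -0.14 at 1 mg/kg and -0.13 at 10 mg/kg.

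**Figure D4:**
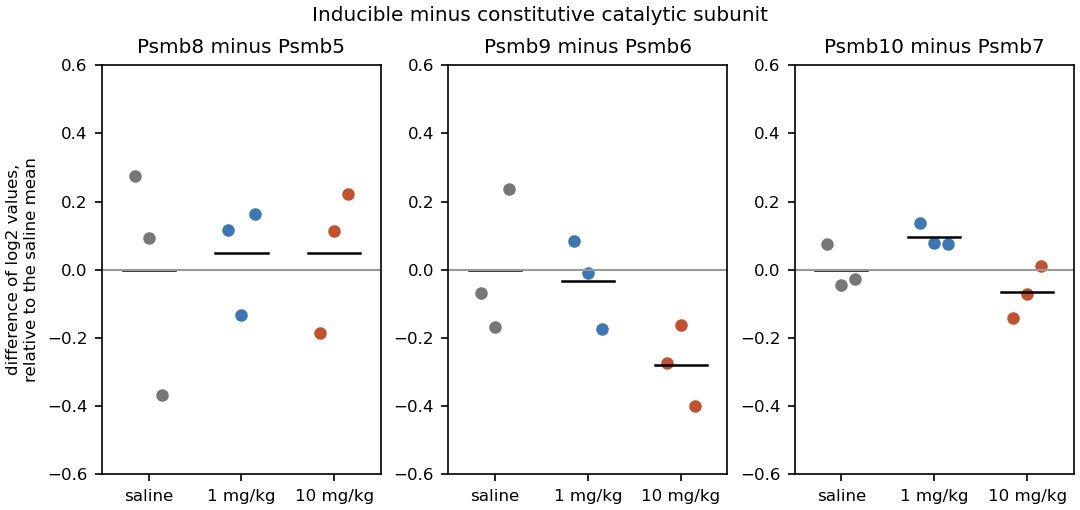
Difference of log2 values between the inducible and the constitutive catalytic subunit on each array, relative to the mean of the 3 saline arrays (points are arrays, bars are group means). Each MPH group overlaps saline in every pair. In the second the 10 mg/kg arrays lie low, with replicate 2 inside the saline range. In the third the 1 mg/kg arrays lie high and the 10 mg/kg arrays low, each overlapping saline but not each other.

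Psmb9 had the lowest fold change of the core at 10 mg/kg. It stood at 4.68, 4.50 and 4.95 in saline, 4.76, 4.69 and 4.42 at 1 mg/kg and 4.32, 4.53 and 4.33 at 10 mg/kg. One 10 mg/kg array was within the saline range, and the fold changes were -0.085 ± 0.15 and -0.31 ± 0.15 (adjusted p = 0.869 and 0.542, limma). A second probe set of Psmb9 gave -0.26 and -0.37, and the other one, at 3.33, gave 0.024 and -0.11. Psmb8 varied most of all 43 genes, from 4.93 to 5.53 in saline alone, and its fold changes were -0.025 ± 0.19 and -0.040 ± 0.19. Psmb10 was at 0.001 and -0.10 (SE 0.12). Psmb9 on all 9 arrays and Psmb8 on 3 of them were below the highest background value. Psmb6 gave -0.052 and -0.036, Psmb7 -0.095 and -0.037. Psmb3, a structural subunit, gave 0.017 and -0.013 on its brightest probe set and -0.29 and -0.18 on the other, which is also bright (9.88), so its direction was not settled.

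By their median the ATPases lay further below saline than the core, a difference that was not tested. The median fold change of the 5 genes was -0.094 at 1 mg/kg, with 5 of 5 below saline, and -0.13 at 10 mg/kg, with 4 of 5 below, and 0 passed the adjusted threshold. Psmc5 had the largest difference. It was at 11.43, 11.36 and 11.19 in saline, 11.27, 11.00 and 11.13 at 1 mg/kg and 11.00, 11.19 and 11.22 at 10 mg/kg, so the groups overlapped. Its fold changes were -0.20 ± 0.11 and -0.19 ± 0.11, and the second became -0.070 without saline replicate 1 and 10 mg/kg replicate 1. Psmc4 was at -0.10 ± 0.08 and -0.17 ± 0.08, with all 3 of its 10 mg/kg arrays below saline (9.72, 9.82 and 9.68 against 9.93, 9.83 and 9.98). A second probe set of Psmc4 gave 0.021 and -0.13. Psmc1 gave -0.008 and -0.12, and Psmc2 gave -0.094 and 0.022. The class median at 10 mg/kg was -0.070 without these 2 arrays and -0.062 without 10 mg/kg replicate 1 alone.

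The 13 genes of the lid and base had a median fold change of -0.032 at 1 mg/kg, with 11 below saline, and -0.090 at 10 mg/kg, with 8 below, and 0 passed the adjusted threshold. The medians moved with single arrays, from -0.12 to -0.019 at 1 mg/kg and from -0.14 to -0.047 at 10 mg/kg as each array was left out. The genes with the lowest values were Psmd2, Psmd13 and Psmd9, given above. Psmd4, the ubiquitin receptor that also exists free of the particle, was at 10.97, 10.95 and 10.79 in saline, 10.81, 10.58 and 10.69 at 1 mg/kg and 10.69, 10.74 and 10.79 at 10 mg/kg. The fold changes were -0.22 ± 0.09 and -0.17 ± 0.09 (adjusted p = 0.474 and 0.573, limma), and saline replicate 3 was at the level of the highest MPH arrays. A second, bright probe set of Psmd4 gave -0.31 and -0.40, and a dim one -0.063 and 0.036. Psmd12, a lid subunit, was at 9.61, 9.57 and 9.47 in saline, 9.54, 9.37 and 9.34 at 1 mg/kg and 9.25, 9.37 and 9.41 at 10 mg/kg, with fold changes of -0.14 ± 0.09 and -0.21 ± 0.09.

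Psmd14, the metalloprotease of the lid that cuts ubiquitin chains from the substrate, was not on this side of saline at 10 mg/kg. Its values were 10.94, 10.93 and 10.92 in saline, 10.93, 10.91 and 10.85 at 1 mg/kg and 10.96, 11.01 and 11.10 at 10 mg/kg. All 3 arrays of the last group were above saline, with a fold change of 0.094 ± 0.07 (adjusted p = 0.686, limma), against -0.032 at 1 mg/kg. Psmd1, the other large scaffold of the base, was at 0.013 and 0.037, and Psmd6 and Psmd11 of the lid were between -0.020 and 0.044. In Psmd7 the brightest probe set gave 0.014 and -0.12 while a dim one gave 0.13 and 0.19. Psmd3, Psmd5 and Psmd8 ranged from -0.090 to 0.034.

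**Figure D5:**
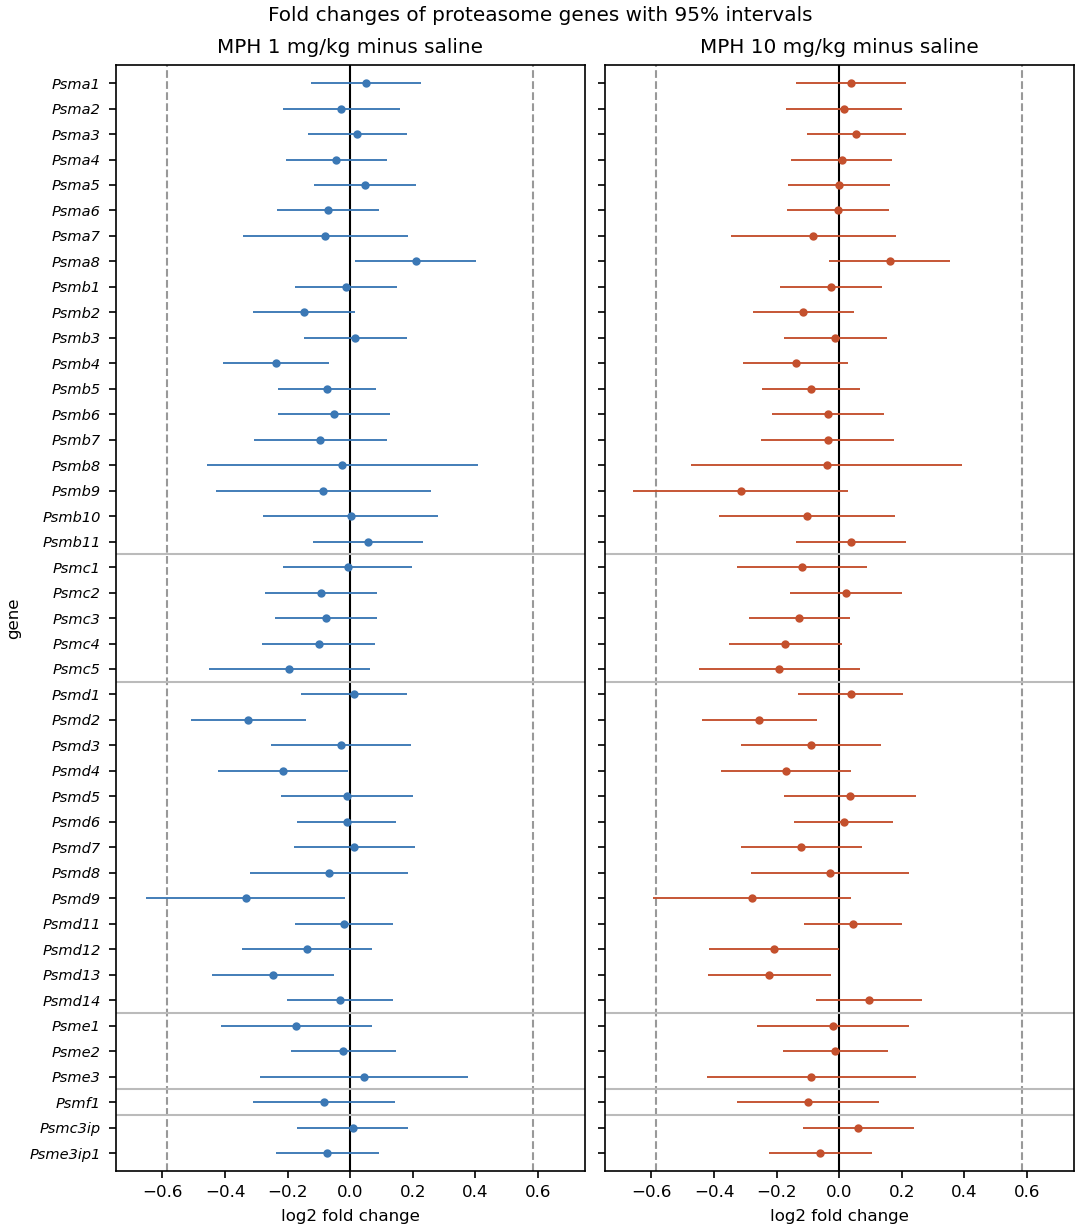
Log2 fold change of each of the 43 genes with its 95% confidence interval from limma, at 1 mg/kg (left) and 10 mg/kg (right), in the order core, ATPase, lid or base, activator, regulator and non-subunits (parted by grey lines); dashed lines mark 1.5-fold. Most intervals cross 0. The interval of Psmd9 passes the lower dashed line in both panels, and that of Psmb9 passes it at 10 mg/kg.

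The 3 activators had median fold changes of -0.022 and -0.019, and 0 of them passed the adjusted threshold. Psme1 and Psme2 form the interferon-inducible activator of the immunoproteasome, and Psme3 forms that of the nucleus. Psme1 was at 8.87, 9.16 and 8.98 in saline, 8.85, 8.73 and 8.92 at 1 mg/kg and 9.06, 9.0018 and 8.89 at 10 mg/kg, with overlap of all groups. Its fold changes were -0.17 ± 0.10 and -0.019 ± 0.10. Psme2, its partner, gave -0.022 and -0.013 (SE 0.07). Psme3 gave 0.043 and -0.089 (SE 0.14), and its second probe set 0.093 and 0.17. The inhibitor-like regulator Psmf1 gave -0.083 and -0.099 (SE 0.10), and all 4 of its probe sets were below saline in both comparisons, down to -0.40 and -0.37. Those lowest values came from a probe set at 4.99, under the highest background value, as was another at 4.88. The probe set at 6.89 gave -0.14 and -0.15. Of the 2 genes that match by name only, Psmc3ip, a meiotic recombination factor, gave 0.008 and 0.061, and Psme3ip1, which binds the nuclear activator, gave -0.073 and -0.060. All 9 levels of Psmc3ip, 4.77 to 4.99, were under the highest background value.

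Several probe sets were present for 15 of the 43 genes, and in 12 of these they disagreed in sign in at least 1 comparison with saline, 8 in each comparison. The values above are those of the brightest probe set unless another is named.

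The MPH groups were compared with each other to ask whether they differed by dose, in the direction the labels give. The median of the 43 genes was 0.013 at 10 mg/kg relative to 1 mg/kg, against 0.003 over all genes, and 24 of 43 were above 0. None passed the adjusted threshold, where 0% of all probe sets did, and the smallest adjusted p was 0.800 (limma), of Psmd14 with 0.13 ± 0.07. With p unadjusted, 0 genes were higher and 0 lower at the same threshold of 0.05, against 2.84% and 2.98% of all genes. The confidence interval was within 1.5-fold for 43 of 43 genes. Psmb4 was at 0.098 ± 0.07 and Psmb9 was at -0.23 ± 0.15.

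Genes that act beside the proteasome were read from lists. Sem1, a subunit outside the naming rule, was at 0.086 and 0.038 (SE 0.07). The 5 chaperones that build the core (Psmg1, Psmg2, Psmg3, Psmg4 and Pomp) had a median of -0.003 and -0.014, and 0 of 5 passed 0.05 against saline with p unadjusted. Of 9 factors that bind the proteasome, 0 and 2 were higher by that rule, against 3.32% and 3.28% of all genes, and 0 were lower, against 7.4% and 6.95%. Those 2 were Zfand5, an activator of degradation, and Rad23b, a shuttle for ubiquitinated substrates. Zfand5 was dim, at 3.64 to 3.97 in saline, 3.92 to 4.22 at 1 mg/kg and 4.19 to 4.27 at 10 mg/kg, and its fold changes were 0.24 ± 0.12 and 0.44 ± 0.12 (adjusted p = 0.522 and 0.424, limma). Rad23b gave -0.031 and 0.18 (SE 0.08).

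Of 7 genes for ubiquitin and its first steps 1 was lower at 1 mg/kg and 0 at 10 mg/kg, against 7.4% and 6.95% of all genes. It was Uchl1, the abundant neuronal ubiquitin hydrolase, with 11.05, 11.12 and 11.14 in saline, 10.78, 10.87 and 10.85 at 1 mg/kg and 11.08, 10.98 and 10.92 at 10 mg/kg. Its fold changes were -0.28 ± 0.08 and -0.11 ± 0.08 (adjusted p = 0.403 and 0.655, limma). Of 4 partners of the unfoldase Vcp, 1 was lower in each comparison, against the same shares of all genes, the cofactor Nsfl1c, with -0.30 ± 0.10 and -0.34 ± 0.10. All 6 of its MPH arrays, 9.83 to 9.99, were below its saline arrays, 10.08 to 10.38.

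Of 6 regulators of proteasome genes 2 were higher at 1 mg/kg and 1 at 10 mg/kg by the same rule, against 3.32% and 3.28% of all genes. Ngly1, the glycanase that activates Nfe2l1, was at 8.04, 8.19 and 7.97 in saline and at 8.25 to 8.35 on the 6 MPH arrays, a fold change of 0.25 ± 0.08 and 0.24 ± 0.08 (adjusted p = 0.433 and 0.466, limma). Nfe2l2 gave 0.19 ± 0.08 and 0.16 ± 0.08. Nfe2l1 itself, which drives proteasome genes when degradation fails, was at -0.033 and -0.047 (SE 0.07). Of 16 genes of antigen processing and the interferon response 0 were higher and 0 lower at 1 mg/kg, and 2 were higher (Irf7 and Tapbp) and 3 lower (Nlrc5, Erap1 and Ifi35) at 10 mg/kg, against 3.28% and 6.95% of all genes. Nlrc5 was at 3.07 to 3.51 on all arrays, under the 95th percentile of the background. Irf7 had 0.32 ± 0.11 and Erap1 -0.35 ± 0.11 there. No gene of these 7 lists passed an adjusted p of 0.05 with or without the block.

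Other large complexes gave a measure of scale. The median fold change of 68 cytosolic ribosomal protein genes was 0.010 at 1 mg/kg and -0.001 at 10 mg/kg, with 29 and 36 genes below saline, and that of 78 subunits of mitochondrial oxidative phosphorylation was 0.027 and -0.003, with 31 and 40 below. By an unadjusted p of 0.05 or less 1 and 0 ribosomal genes and 0 and 0 of the mitochondrial ones were lower, and 0 and 1 of the former and 4 and 1 of the latter were higher, against the shares of all genes given above. The difference between these groups and the proteasome genes was not tested.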

How the data were processed

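RNA of the substantia nigra was measured on 9 arrays, 3 per group, grouped and dosed as the deposited labels say. The values are on a log2 scale, as deposited, after Robust Multichip Average (RMA; version not given in the sources used here), by which the authors turned probe intensities into 1 value per probe set. A ComBat correction of the replicates is described too, and whether it is part of the deposited log2 values is not stated. Of 45141 probe sets 104 controls were left out. The platform annotation gave 28898 probe sets a single gene, 551 several and 15588 none.

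The other 45037 entered a fit by limma 3.58.1 (lmFit and eBayes, R 4.3.3) with group and, because a batch of the 3 replicates is corrected in the study's methods, replicate number as terms. Deviations from the group means did not run together in arrays of 1 number (correlations -0.132 to -0.626, all negative). The numbers of probe sets that the paper reports were met by the fit without this block. Whether the deposited values already hold a correction by replicate, which the block would repeat, was not tested. P-values were adjusted by Benjamini-Hochberg over all probe sets, threshold 0.05. Each gene was read from its brightest single-gene probe set. The model was checked on simulated data. Exact permutation tests went through every split of the arrays (Python 3.11.15, numpy 2.4.6). Confidence intervals took the t quantile from scipy 1.17.1.

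The members, the other gene lists and the rule for named genes were chosen with earlier results of these data known. The rule named the catalytic subunits, the activators and Psmf1, Psmd4, Psmd14, the up to 3 genes of smallest p per class and comparison, those near background and those whose probe sets disagree. Psma2 to Psma7, Psmd1, Psmd3, Psmd5, Psmd8, Psme3ip1 and the lists' other genes were named besides. Alternatives were no block, 2 groups only, 2 other normalizations, a brightness filter, another variance model, array weights, the mean of probe sets and leaving out each array. One more, leaving out 2 arrays together, was chosen after seeing the data. The number of arrays limits the precision.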

Additional observations from a re-analysis of the deposited data

How the results depend on the processing

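No proteasome gene passed an adjusted p of 0.05 in any of the 3 comparisons under any alternative, the smallest being 0.0721, for Psmd2 at 1 mg/kg without the replicate block. Of 1112 values of the 31 named genes under the alternatives 1034 kept their sign and 78 turned it, and a turned value was at most 0.20 in size. Psmd2, Psmb4, Psmd13, Psmd9, Psmb2, Psmb5, Psmc3, Psmd4 and Psmd12 kept a value below 0 under every alternative run. The first 7 of these are the genes with all 6 MPH arrays below all 3 saline arrays. Leaving out arrays could therefore hardly turn their sign, and the kept sign adds little for them. The number of arrays, the signal near background for Psma8, Psmb8, Psmb9, Psmb11 and Psmc3ip, and probe sets that disagree limit these results. The cause of the changes below was not tested; the alternatives that leave out arrays or probe sets also test fewer of them. The block, which stands on a number shared in the labels, raised the adjusted p-values of all 43 genes. Below, genes lower or higher at that p are the proteasome genes at an unadjusted p of 0.05 or less, and a gene's name stands for its fold change.

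Without the replicate block, 1 mg/kg gave 54 for probe sets past the adjusted threshold, and 10 mg/kg gave 115 for probe sets past the adjusted threshold, 1 for genes higher at that p and 9 for genes lower at that p, and 10 against 1 mg/kg gave 1 for genes higher at that p. With only the 2 groups compared in the fit, 1 mg/kg gave 0 for genes higher at that p. After a second quantile normalization, 1 mg/kg gave 0.014 for Psmc1 and 0.00658 for Psmd6, and 10 mg/kg gave 0.0087 for Psme2. After centring each array on its median, 10 mg/kg gave -0.000467 for Psmd6. Among the brighter probe sets, 1 mg/kg gave 0 for genes higher at that p and 3 for genes lower at that p. With the intensity trend and robust option of limma, 1 mg/kg gave 2 for probe sets past the adjusted threshold, and 10 mg/kg gave 1 for probe sets past the adjusted threshold and 5 for genes lower at that p. With array weights, 1 mg/kg gave -0.036 for Psmb10 and -0.028 for Psme3, and 10 mg/kg gave 0.061 for Psmb8 and 0.00987 for Psme2, and 10 against 1 mg/kg gave 0.034 for the median of core genes. With the mean of all probe sets of a gene, 1 mg/kg gave -0.035 for Psma1, -0.13 for Psmb3, 0.020 for Psmd6 and 0.061 for Psmd11, and 10 mg/kg gave -0.041 for the median of lid or base genes, 0.024 for Psmb8, -0.041 for Psmd6, 0.0036 for Psmd7 and 0.040 for Psme3, and 10 against 1 mg/kg gave 0.032 for the median of core genes. Without saline replicate 1 and 10 mg/kg replicate 1 together, an alternative chosen after seeing the data, 1 mg/kg gave 1 for probe sets past the adjusted threshold, 3 for genes lower at that p, 0.043 for Psmb8 and -0.014 for Psmc3ip, and 10 mg/kg gave 3 for probe sets past the adjusted threshold, 1 for genes lower at that p, 0.023 for the median of core genes, -0.070 for the median of ATPase genes, -0.039 for the median of lid or base genes, 0.031 for Psmb3, 0.023 for Psmb6, 0.072 for Psmb7, 0.20 for Psmb8, 0.080 for Psmb10, 0.064 for Psme3, 0.021 for Psmf1 and 0.0081 for Psmb10 minus Psmb7, and 10 against 1 mg/kg gave 0.034 for the median of core genes. As single arrays were left out, 1 mg/kg gave 0 to 1 for probe sets past the adjusted threshold, 0 to 1 for genes higher at that p, 1 to 5 for genes lower at that p, -0.055 to 0.011 for the median of core genes, -0.12 to -0.019 for the median of lid or base genes, -0.14 to 0.19 for Psmb8 minus Psmb5 and -0.12 to 0.085 for Psmb9 minus Psmb6. In the same way 1 mg/kg gave -0.018 to 0.055 for Psmb3, -0.27 to 0.13 for Psmb8, -0.24 to 0.10 for Psmb9, -0.095 to 0.12 for Psmb10, -0.069 to 0.070 for Psmc1, -0.042 to 0.065 for Psmc3ip, -0.039 to 0.018 for Psmd6, -0.027 to 0.062 for Psmd7, -0.041 to 0.013 for Psmd11, -0.063 to 0.00646 for Psmd14, -0.059 to 0.012 for Psme2 and -0.15 to 0.16 for Psme3. As single arrays were left out, 10 mg/kg gave 0 to 1 for probe sets past the adjusted threshold, 1 to 4 for genes lower at that p, -0.086 to -0.000608 for the median of all proteasome genes, -0.036 to 0.014 for the median of core genes, -0.16 to -0.062 for the median of ATPase genes, -0.14 to -0.047 for the median of lid or base genes and -0.13 to 0.19 for Psmb8 minus Psmb5. In the same way 10 mg/kg gave -0.00955 to 0.10 for Psma1, -0.047 to 0.026 for Psmb3, -0.080 to 0.019 for Psmb6, -0.11 to 0.055 for Psmb7, -0.28 to 0.17 for Psmb8, -0.20 to 0.055 for Psmb10, -0.022 to 0.070 for Psmb11, -0.015 to 0.084 for Psmc2, -0.00931 to 0.029 for Psmd6, -0.11 to 0.082 for Psme1, -0.054 to 0.020 for Psme2, -0.28 to 0.029 for Psme3 and -0.18 to 0.019 for Psmf1. As single arrays were left out, 10 against 1 mg/kg gave 0 to 1 for genes lower at that p and -0.027 to 0.036 for the median of core genes.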
